A study of Mus musculus with 32 samples.

Results

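The regions described here are wild-type Oct4 peaks that overlapped a peak of RNA polymerase II (RNAP) and no peak of H3K4me3, the histone mark of active gene starts. An Oct4 peak of wild-type cells on chromosomes 1 to 19 was a member when at least 1 bp overlapped a wild-type RNAP peak and no wild-type H3K4me3 peak overlapped it. Of 2571 deposited wild-type Oct4 peaks, 2502 lay on these chromosomes, and a run of 11 neighbouring peaks on chromosome 3 was left out by the rule. Of the 2491 peaks that remained, 410 (16.5%) were members, called RNAP-positive sites below. The rest were 1752 H3K4me3-free Oct4 peaks without RNAP (70.3%), called RNAP-negative sites, and 329 Oct4 peaks at H3K4me3 (13.2%).

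The study profiled J1 mouse embryonic stem cells of 3 genotypes, Taf5l-KO, Taf6l-KO and wild type, grown in serum with LIF. In each genotype 7 targets were immunoprecipitated with antibodies: Oct4, Myc, H3K4me3, H3K9ac, and RNAP, RNAP-ser5 and RNAP-ser2. J1 cells of wild-type genotype carrying TAF5L-FB (2 lines), TAF6L-FB (2 lines) or the biotin ligase BirA, the control, were precipitated with streptavidin. There was 1 library per antibody and genotype, so no test between genotypes was possible and no p-value is given, and the labels do not say how many knockout clones were used or how far the tagged lines are independent. Shares carry exact (Clopper-Pearson) 95% intervals, given in brackets after the share. Only counting error is in them, and peaks close to each other do not vary independently.

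Oct4 (POU5F1) is a POU-domain transcription factor that keeps embryonic stem cells pluripotent, and much of its binding lies in enhancers away from gene starts. Active enhancers often carry RNA polymerase II themselves and can be transcribed into short-lived enhancer RNAs. Phosphorylation of the polymerase tail on serine 5 marks polymerase that has begun transcription, and phosphorylation on serine 2 marks elongating polymerase. TAF5L and TAF6L are subunits of SAGA, a coactivator complex that acetylates histone H3, lysine 9 included.

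The Oct4 and RNAP lists differed in depth between genotypes. The Oct4 libraries held 7068955 unique tags in Taf5l-KO, 6628480 in Taf6l-KO and 8522959 in wild type, with 2957, 2008 and 2502 peaks on chromosomes 1 to 19 in that order of genotypes. The RNAP libraries held 15865460 unique tags in Taf5l-KO, 7236644 in Taf6l-KO and 5174150 in wild type. Their lists held 19758, 25589 and 28007 peaks in that order, so the deepest RNAP library had the shortest list. Over all 21 knockout-series libraries the number was between 1702363 and 22968606, the lowest being RNAP-ser5 of Taf6l-KO. The part of depth in the overlaps below was not tested.

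The sites were chosen by the wild-type Oct4, RNAP and H3K4me3 peak calls, so values of these lists are a description. The fold enrichment of a peak, the ratio of its pileup to local background, is the authors' own value and serves here to describe or rank peaks within 1 list. Oct4 fold enrichment at the RNAP-positive sites lay between 2.44 and 36.5, with a median of 8.22, against medians of 7.65 at RNAP-negative sites and 7.59 at Oct4 peaks at H3K4me3. The RNAP-positive Oct4 peaks had a median width of 172 bp, against 147 bp at RNAP-negative sites and 162 bp at H3K4me3. The overlapping RNAP peaks were mostly weak. Their median fold enrichment was 4.59 with quartiles of 4.0 and 5.86, their strongest was 47.2, and 132 of the 410 sites (32.2%) had an RNAP peak with −log10 q of 5 or more, q being the peak caller's false discovery rate. The 410 sites lay in 394 RNAP peaks, of median width 576.5 bp, which covered the whole Oct4 peak at 239 sites (58.3%). The Oct4 summit stood a median of 161 bp from the RNAP peak's centre.

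Peaks on either side of the rule differed by a few bases. The members with the smallest RNAP overlap lay on chromosome 10 at 23532991 to 23533284 (3 bp, Oct4 fold 11.7) and on chromosome 16 at 33844373 to 33844667 (4 bp, Oct4 fold 9.47). Just outside were peaks 1 bp from RNAP on chromosome 1 at 71720186 to 71720376 (Oct4 fold 7.79) and on chromosome 13 at 114606118 to 114606226 (6.96). The members nearest to H3K4me3 lay on chromosome 1 at 72359753 to 72359867, at 7 bp (Oct4 fold 6.88), and on chromosome 14 at 22355849 to 22355982, at 11 bp (4.89). The Oct4 peaks on chromosome 15 at 88539302 to 88539634 and on chromosome 4 at 141625471 to 141625699 were left out for an H3K4me3 overlap of 2 bp, with Oct4 folds of 19.5 and 6.34. All coordinates are on mm9, and no gene annotation of that build was used.

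A large share of the RNAP-positive sites was not far from H3K4me3, which goes against reading all of them as distal. The nearest wild-type H3K4me3 peak was within 1000 bp at 139 RNAP-positive sites (33.9%), against 139 of 1752 RNAP-negative sites (7.93%). Within 200 bp there were 82 RNAP-positive sites (20%) and 65 RNAP-negative sites (3.71%). The median distance was 4506.5 bp at RNAP-positive sites and 23199 bp at RNAP-negative sites. At 116 RNAP-positive sites (28.3%) the RNAP peak itself reached an H3K4me3 peak, and those RNAP peaks were wide, with a median of 1490.5 bp and a median fold of 6.07. The other 294 sites (71.7%) had an RNAP peak free of H3K4me3, with a median width of 477.5 bp and a median fold of 4.35. Still, 148 RNAP-positive sites (36.1%) lay over 10000 bp from H3K4me3, as did 1191 RNAP-negative sites (68.0%). This split by the RNAP peak was added after the data were seen.

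**Figure D1:**
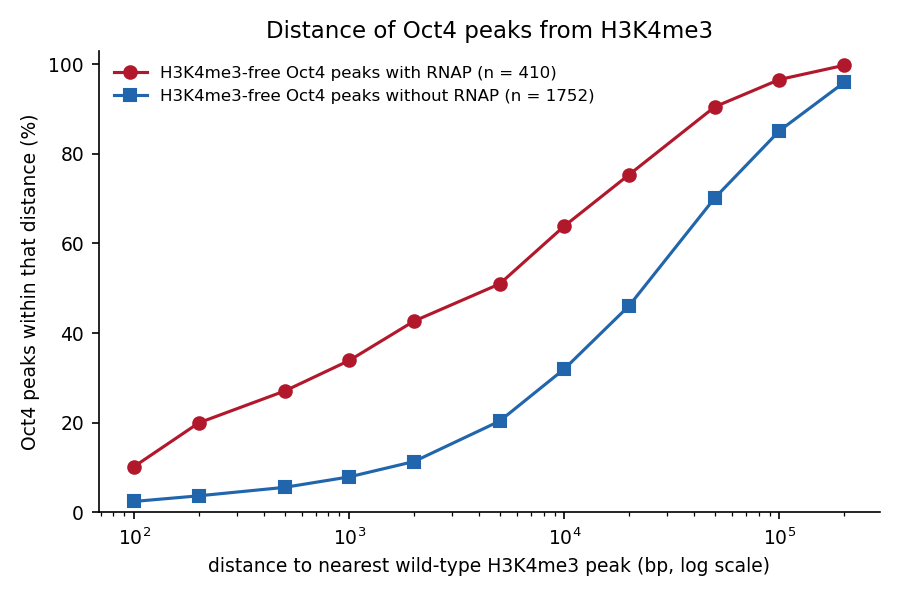
Share of Oct4 peaks (%) within a given distance (bp, log scale) of the nearest wild-type H3K4me3 peak, for the 410 RNAP-positive sites (circles) and the 1752 RNAP-negative sites (squares). At 1000 bp the curve of RNAP-positive sites stands at 33.9% and that of RNAP-negative sites at 7.93%.

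Many RNAP-positive sites still had an Oct4 peak in the knockouts, more often in Taf5l-KO than in Taf6l-KO cells. A Taf5l-KO Oct4 peak overlapped 297 of the 410 sites, 72.4% (67.8 to 76.7), beside 59.7% of all 2491 wild-type Oct4 peaks. In Taf6l-KO cells 219 sites were overlapped, 53.4% (48.5 to 58.3), beside 47.2% of all peaks. Of the RNAP-negative sites, Taf5l-KO peaks overlapped 60.3% (57.9 to 62.6) and Taf6l-KO peaks 47.4% (45.1 to 49.8). Of the Oct4 peaks at H3K4me3 they overlapped 40.4% and 38.3%. The intervals of RNAP-positive and RNAP-negative sites were apart in Taf5l-KO and overlapped in Taf6l-KO. The difference between the sets was not tested. With peaks of −log10 q of 5 or more alone, 109 sites remained, and 64.2% of them kept Oct4 in Taf5l-KO and 46.8% in Taf6l-KO. Where the RNAP peak reached H3K4me3, Oct4 was kept at 70.7% of sites in Taf5l-KO and 44.8% in Taf6l-KO, against 73.1% and 56.8% where it did not.

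Stronger wild-type Oct4 peaks were kept more often, and this held within the RNAP-positive sites. Over the 4 quartiles of wild-type Oct4 fold enrichment, weakest to strongest, 54.6%, 57.9%, 78.4% and 93.4% of RNAP-positive sites had a Taf5l-KO peak. The RNAP-negative sites gave 41.5%, 49.3%, 65.4% and 87.9%, lower in every quartile. With Taf6l-KO the shares were 28.9%, 40%, 50.5% and 86.0% of RNAP-positive sites, against 31.7%, 35.0%, 45.8% and 81.7% of RNAP-negative sites. There the RNAP-positive sites were lower in the weakest quartile and higher in the other 3. Weighting the RNAP-negative sites to the members' quartiles gave 62.7% in Taf5l-KO and 50.5% in Taf6l-KO. This shifted them by 2.39 and 3.11 percentage points. Before weighting, the RNAP-positive sites had stood 12.2 points higher in Taf5l-KO and 5.98 points higher in Taf6l-KO.

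**Figure D2:**
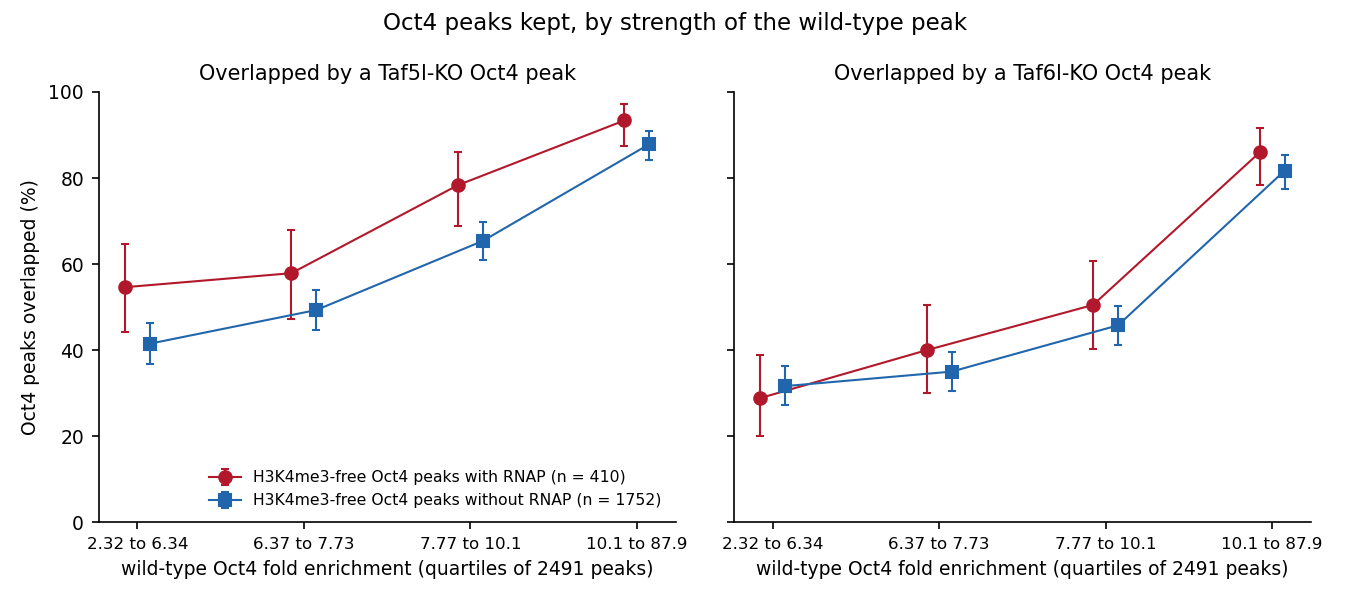
Share of wild-type Oct4 peaks (%) overlapped by a Taf5l-KO (left) or Taf6l-KO (right) Oct4 peak in each quartile of wild-type Oct4 fold enrichment, with exact 95% intervals, for RNAP-positive (circles) and RNAP-negative (squares) sites. In the strongest quartile 93.4% and 86.0% of RNAP-positive sites were overlapped in the 2 knockouts.

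Over both knockouts, 192 RNAP-positive sites (46.8%) kept an Oct4 peak in both, 105 (25.6%) in Taf5l-KO only, 27 (6.59%) in Taf6l-KO only and 86 (20.98%) in neither. The median wild-type Oct4 fold of these groups was 10.4, 7.58, 7.59 and 6.79 in that order. This split was made for the RNAP-positive sites only, so it has no counterpart over all Oct4 peaks. Taken singly, the Taf5l-KO list overlapped 59.7% of all 2491 wild-type Oct4 peaks and the Taf6l-KO list 47.2%. No site that both knockout lists missed had a wild-type fold above 10.7, while all 20 of the strongest sites, with a fold of 19.5 or more, had an Oct4 peak in both knockouts. A kept peak overlapped the wild-type peak by definition, so its summit could not lie far away. The summits of kept peaks were a median of 21 bp from the wild-type summit in either knockout. They were within 50 bp at 250 sites (84.2%) in Taf5l-KO and 193 sites (88.1%) in Taf6l-KO. A peak that had moved further would count as missing, and these distances were taken for the RNAP-positive sites only.

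The 5 strongest Oct4 peaks show this at single sites. The strongest lay on chromosome 17 at 35640871 to 35641114, 1184 bp from H3K4me3. It had an Oct4 fold of 31.4 in Taf5l-KO, 23.3 in Taf6l-KO and 36.5 in wild type. Its RNAP fold was 4.24 in Taf5l-KO, 3.64 in Taf6l-KO and 4.19 in wild type, so a weak RNAP peak was called in all 3 genotypes. The site on chromosome 5 at 73293601 to 73293879, 10748 bp from H3K4me3, had Oct4 folds of 47.2 in Taf5l-KO, 26.0 in Taf6l-KO and 31.0 in wild type. There RNAP was called in Taf5l-KO (6.15) and wild type (6.19) and not in Taf6l-KO. On chromosome 16 at 84769452 to 84769708, the Oct4 fold was 16.2 in Taf5l-KO, 17.6 in Taf6l-KO and 30.05 in wild type, with RNAP in all 3 genotypes (5.14 in Taf5l-KO, 5.38 in Taf6l-KO, 3.99 in wild type). On chromosome 7 at 71101975 to 71102261 the Oct4 fold was 8.51 in Taf5l-KO, 14.9 in Taf6l-KO and 29.3 in wild type, and this site lay 32 bp from H3K4me3 with an RNAP peak that reached it. The fifth, on chromosome 8 at 46064666 to 46065033, was 40230 bp from H3K4me3 and had Oct4 folds of 18.3 in Taf5l-KO, 11.7 in Taf6l-KO and 27.05 in wild type. Its RNAP peak was called in Taf5l-KO (3.95) and wild type (4.83) and not in Taf6l-KO. Oct4 was thus present in all 3 genotypes at each of the 5, and RNAP was not called in Taf6l-KO at 2 of them, on chromosomes 5 and 8.

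The strongest sites with no Oct4 peak in either knockout were of middling strength. They lay on chromosome 5 at 81985206 to 81985366 (wild-type Oct4 fold 10.7), chromosome 16 at 23099881 to 23100044 (10.3), chromosome 3 at 133181768 to 133182014 (10.1), chromosome 1 at 173020223 to 173020405 (9.62) and chromosome 3 at 96177931 to 96178097 (9.62). All 5 had an RNAP peak in Taf5l-KO, with folds of 3.48, 5.12, 4.0, 5.35 and 10.6 in the same order. In Taf6l-KO the sites on chromosome 16 (5.44) and both on chromosome 3 (4.43 and 27.9) had one, and those on chromosomes 5 and 1 had none. The regions on chromosomes 5, 16 and 1 were within 99 bp of a wild-type H3K4me3 peak.

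RNAP was called at most of the sites in the knockouts too. A Taf5l-KO RNAP peak overlapped 325 of the 410 sites, 79.3% (75.02 to 83.1), beside 28.7% of all wild-type Oct4 peaks. In Taf6l-KO the number was 295, 72.0% (67.3 to 76.2), beside 26.4%. A wild-type RNAP peak, which the rule required, overlapped 24.2% of all Oct4 peaks. Among RNAP-negative sites, chosen for having no RNAP in wild type, 9.47% had an RNAP peak in Taf5l-KO and 8.56% in Taf6l-KO, and among Oct4 peaks at H3K4me3 67.8% and 64.4%. Where the RNAP peak reached H3K4me3, 94.0% of sites kept RNAP in Taf5l-KO and 92.2% in Taf6l-KO, against 73.5% and 63.9% of the sites whose RNAP peak was free of it.

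RNAP peaks can also be followed as peaks of their own. Of the 284 H3K4me3-free RNAP peaks that held a member, 211 were overlapped by a Taf5l-KO RNAP peak, 74.3% (68.8 to 79.3), and 198 by a Taf6l-KO RNAP peak, 69.7% (64.0 to 75.01). Of all 28007 wild-type RNAP peaks the shares were 52.5% and 60.1%. Among 12379 RNAP peaks free of both H3K4me3 and Oct4 they were 22.3% in Taf5l-KO and 25.6% in Taf6l-KO. Those peaks were weaker and narrower, with a median fold of 3.88 and a median width of 363 bp. Weighted to the strength and width of the members' RNAP peaks they gave 33.9% and 37.7%, so the gap narrowed by 11.6 and 12.1 points and the members' RNAP peaks stayed 40.4 and 32.0 points higher. This weighting was chosen after the data were seen, and the difference was not tested.

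RNAP was called at most sites whether or not Oct4 was kept. In Taf5l-KO, RNAP was called at 242 of the 297 sites that kept Oct4, 81.5% (76.6 to 85.7), and at 83 of the 113 that did not, 73.5% (64.3 to 81.3). In Taf6l-KO the shares were 158 of 219 sites, 72.1%, and 137 of 191 sites, 71.7%. These intervals overlapped in both knockouts. Both Oct4 and RNAP were called in both knockouts at 131 sites (32.0%), and 11 sites (2.68%) had neither in either knockout. These joint counts too were made for the RNAP-positive sites only. Over all wild-type Oct4 peaks, taken singly, Oct4 was called at 59.7% in Taf5l-KO and 47.2% in Taf6l-KO, and RNAP at 28.7% and 26.4%.

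**Figure D3:**
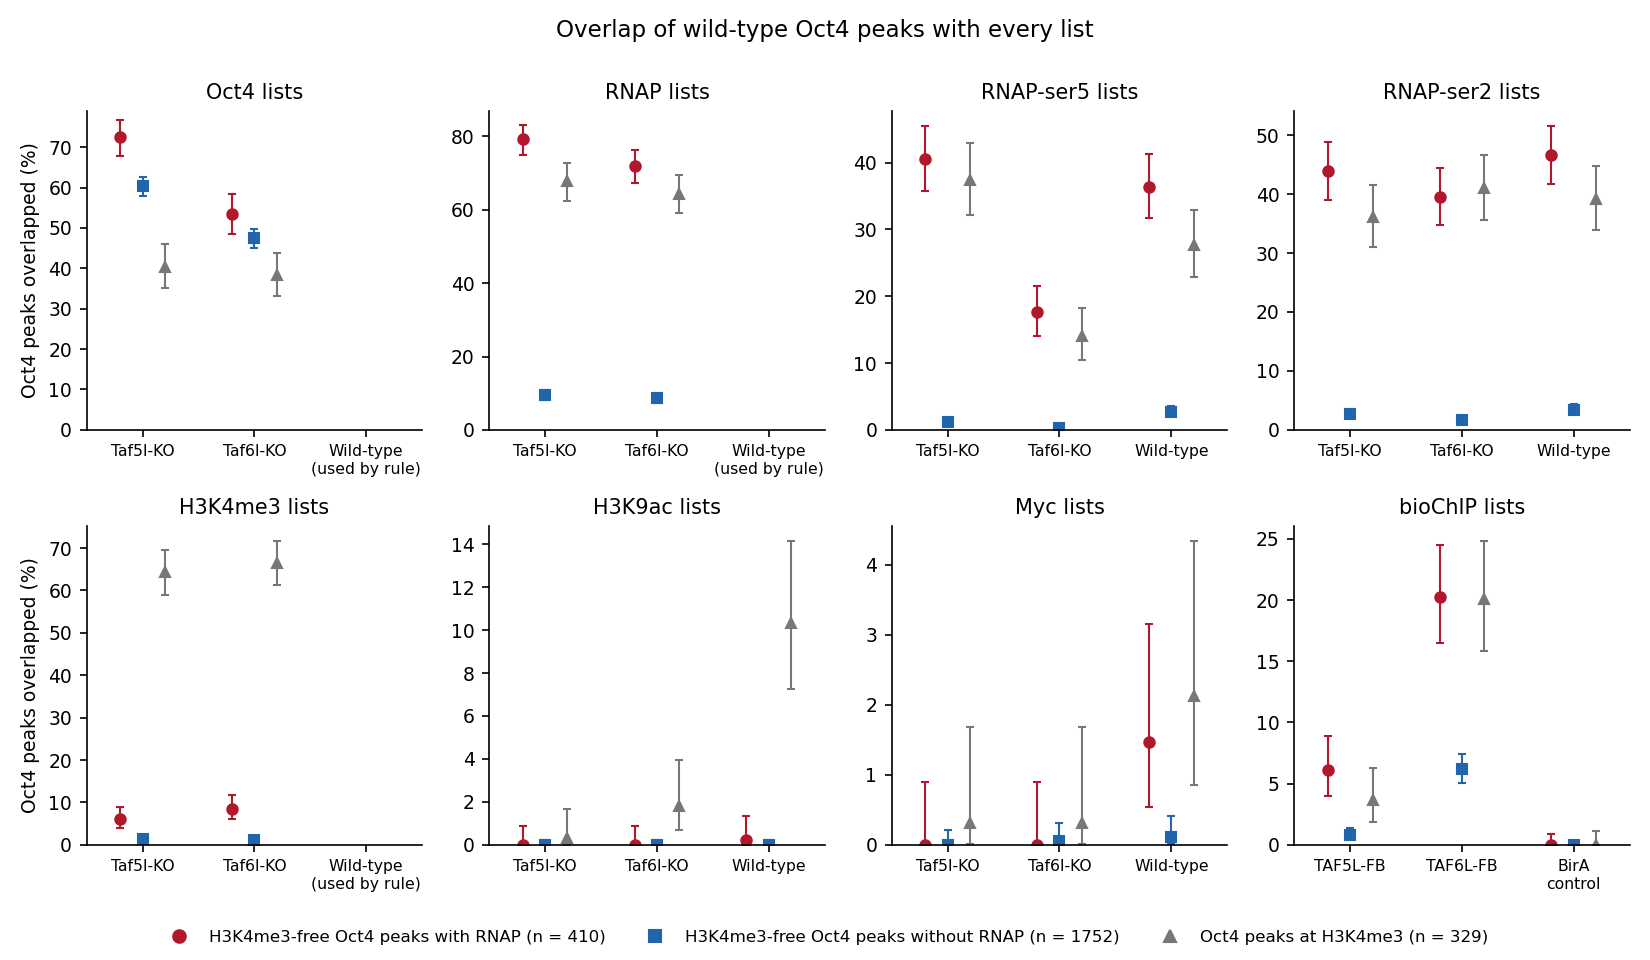
Share of wild-type Oct4 peaks (%) overlapped by each list, with exact 95% intervals, for RNAP-positive sites (circles), RNAP-negative sites (squares) and Oct4 peaks at H3K4me3 (triangles). Each panel has its own axis from 0, and lists the rule used are left blank. RNAP-ser5 at RNAP-positive sites stood at 40.5% in Taf5l-KO, 17.6% in Taf6l-KO and 36.3% in wild type.

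Phosphorylated polymerase was called at many RNAP-positive sites and many Oct4 peaks at H3K4me3 in wild-type cells, and rarely at RNAP-negative sites. RNAP-ser5 overlapped 166 RNAP-positive sites in Taf5l-KO, 40.5% (35.7 to 45.4), 72 in Taf6l-KO, 17.6% (14.0 to 21.6), and 149 in wild type, 36.3% (31.7 to 41.2). Over all wild-type Oct4 peaks these lists overlapped 12.4% in Taf5l-KO, 4.98% in Taf6l-KO and 11.6% in wild type. At Oct4 peaks at H3K4me3 they overlapped 37.4% in Taf5l-KO, 14.0% in Taf6l-KO and 27.7% in wild type, so the low Taf6l-KO share was not particular to the RNAP-positive sites. RNAP-ser5 at RNAP-negative sites was at 1.2% in Taf5l-KO, 0.342% in Taf6l-KO and 2.74% in wild type. The 3 polymerase antibodies recognise forms of the same enzyme, so the split by RNAP is not independent of the difference between RNAP-positive and RNAP-negative sites.

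The RNAP-ser5 share in Taf6l-KO stood apart from the other genotypes, and so did that library's depth. Its unique tags numbered 1702363, against 8807133 in Taf5l-KO and 3871824 in wild type, and the part of depth in the share was not tested. Of the 149 sites with wild-type RNAP-ser5, 113 (75.8%) had it in Taf5l-KO and 68 (45.6%) in Taf6l-KO. With RNAP-ser5 peaks of −log10 q of 5 or more alone, a threshold added after the data were seen, the shares were 10.2% in Taf5l-KO, 4.39% in Taf6l-KO and 15.9% in wild type. Over all Oct4 peaks that threshold left 3.09%, 1.49% and 3.93%. Taf5l-KO was then below wild type, where with the whole lists it was above. The whole RNAP-ser5 lists held 21493 peaks in Taf5l-KO, 15873 in Taf6l-KO and 43394 in wild type. At the stricter threshold 1329, 2151 and 718 peaks were left in that order, the list of Taf6l-KO being the longest. The part of list length in the shares was not tested.

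RNAP-ser2 differed less between genotypes. It overlapped 180 RNAP-positive sites in Taf5l-KO, 43.9% (39.0 to 48.9), 162 in Taf6l-KO, 39.5% (34.7 to 44.4), and 191 in wild type, 46.6% (41.7 to 51.5), and the 3 intervals overlapped. The shares over all Oct4 peaks were 13.9% in Taf5l-KO, 13.1% in Taf6l-KO and 15.3% in wild type. At the stricter threshold the RNAP-positive sites stood at 15.1% in Taf5l-KO, 16.6% in Taf6l-KO and 19.5% in wild type, beside 4.13%, 4.42% and 4.74% of all Oct4 peaks. Of the 191 sites with wild-type RNAP-ser2, 140 (73.3%) had it in Taf5l-KO and 131 (68.6%) in Taf6l-KO. The RNAP-ser2 lists held 30423 peaks in Taf5l-KO, 40620 in Taf6l-KO and 41488 in wild type. At the stricter threshold 1298, 4618 and 1789 were left in that order.

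Sites with RNAP-ser5 mostly had RNAP-ser2 as well, while many sites had RNAP-ser2 alone, most of all in Taf6l-KO. Both were called at 138 RNAP-positive sites in Taf5l-KO, 69 in Taf6l-KO and 124 in wild type. RNAP-ser2 without RNAP-ser5 was called at 42 sites in Taf5l-KO, 93 in Taf6l-KO and 67 in wild type, and RNAP-ser5 without RNAP-ser2 at 28, 3 and 25 sites in the same genotypes. Neither was called at 202 sites (49.3%) in Taf5l-KO, 245 (59.8%) in Taf6l-KO and 194 (47.3%) in wild type, although each site had RNAP in wild type by the rule. These joint counts were made for the RNAP-positive sites only. Over all Oct4 peaks in Taf6l-KO, RNAP-ser5 was called at 4.98% and RNAP-ser2 at 13.1%. That genotype's RNAP-ser5 library held 1702363 unique tags, against 3842867 for its RNAP-ser2, and the part of depth was not tested. Where the RNAP peak reached H3K4me3, RNAP-ser5 was at 66.4% in Taf5l-KO, 42.2% in Taf6l-KO and 57.8% in wild type. At the sites whose RNAP peak was free of H3K4me3 the shares were lower, at 30.3% in Taf5l-KO, 7.82% in Taf6l-KO and 27.9% in wild type. RNAP-ser2 was at 71.6% in Taf5l-KO, 69.0% in Taf6l-KO and 66.4% in wild type where the RNAP peak reached H3K4me3, against 33.0%, 27.9% and 38.8% where it did not.

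Both phosphorylated forms followed the strength of the wild-type RNAP peak. Over quartiles of RNAP fold enrichment among the 410 sites, weakest to strongest, wild-type RNAP-ser5 was at 15.5%, 23.5%, 27.5% and 78.6%, and wild-type RNAP-ser2 at 20.4%, 34.3%, 47.1% and 84.5%. RNAP was kept at 62.1%, 76.5%, 83.3% and 95.1% in Taf5l-KO and at 54.4%, 66.7%, 73.5% and 93.2% in Taf6l-KO. Oct4 did not follow RNAP in this way. It was kept at 75.7%, 70.6%, 72.5% and 70.9% in Taf5l-KO, with no steady rise or fall. In Taf6l-KO it was kept at 59.2%, 55.9%, 54.9% and 43.7%, a share that fell at each step towards stronger RNAP. The weakest quartile held 10 sites whose RNAP peak reached H3K4me3, and the strongest held 60.

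The sites with the strongest Oct4 were not those with the strongest RNAP, but strong RNAP was rare among all the sites. None of the 20 sites with the strongest Oct4 had an RNAP fold of 10 or more, and their RNAP folds lay between 3.60 and 6.91. Of these 20, 14 kept RNAP in both knockouts and 2 had an RNAP peak that reached H3K4me3. A fold of 10 was taken as a dividing line after the data were seen. Above it were 21 of the 410 sites, with Oct4 folds between 4.81 and 11.9. So few lay above the line that finding none among 20 sites would not be unusual. Nothing particular to the strongest Oct4 sites can be read from the absence of such folds there. Of the 21 sites, 17 had an RNAP peak that reached H3K4me3. All 21 kept RNAP in both knockouts, and RNAP-ser5 was called at 20 of them in Taf5l-KO, 18 in Taf6l-KO and 20 in wild type. Oct4 was kept at 10 of the 21 in Taf5l-KO, 47.6% (25.7 to 70.2), and at 4 in Taf6l-KO, 19.05% (5.45 to 41.9). The 389 sites below the line kept Oct4 at 73.8% in Taf5l-KO and 55.3% in Taf6l-KO. Many of the 21 sites were close neighbours. A cluster on chromosome 12 held 5 of them, and others stood close together on chromosome 11 and on chromosome 3. The intervals count each site as independent and take no account of this. The difference between the 21 and the 389 sites was not tested.

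**Figure D4:**
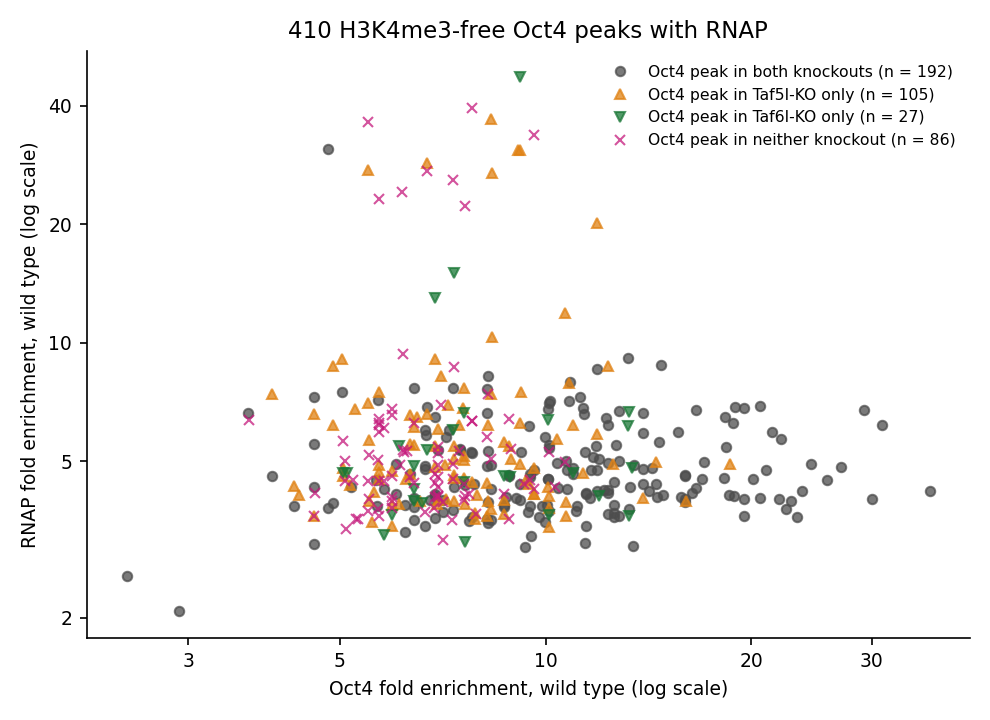
Wild-type RNAP fold enrichment against wild-type Oct4 fold enrichment (both log scales) at the 410 RNAP-positive sites, marked by whether an Oct4 peak was called in both knockouts, Taf5l-KO only, Taf6l-KO only or neither. The 21 sites with an RNAP fold of 10 or more all have Oct4 folds of 11.9 or less, and the strong Oct4 sites on the right are those kept in both knockouts.

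The 5 sites with the strongest RNAP were strong in all forms of polymerase. On chromosome 3 at 96292738 to 96292957 the RNAP fold was 15.4 in Taf5l-KO, 39.9 in Taf6l-KO and 47.2 in wild type, and Oct4 was called in Taf6l-KO (5.86) and wild type (9.16). Its RNAP-ser5 fold was 16.5 in Taf5l-KO, 22.4 in Taf6l-KO and 35.7 in wild type, and its RNAP-ser2 fold 19.6, 28.3 and 34.1 in the same genotypes. On chromosome 19 at 18807264 to 18807392 the RNAP fold was 11.8 in Taf5l-KO, 33.6 in Taf6l-KO and 39.5 in wild type. Oct4 was called there in wild type only (7.79), and the nearest H3K4me3 peak was 16818 bp away. The chromosome 11 sites at 87275828 to 87275967 and at 87284894 to 87285054 had RNAP folds of 17.8 and 12.9 in Taf5l-KO, 14.8 and 29.9 in Taf6l-KO, and 37.0 and 36.3 in wild type. Oct4 at the first was called in Taf5l-KO (4.46) and wild type (8.33), and at the other in wild type only (5.50). The fifth, on chromosome 3 at 96177931 to 96178097, had an RNAP fold of 10.6 in Taf5l-KO, 27.9 in Taf6l-KO and 33.6 in wild type, with Oct4 in wild type only (9.62). Polymerase of all 3 forms was called in every genotype at these 5 sites, while Oct4 was missing from at least 1 knockout at each. The 4 sites with an RNAP fold of 10 or more and Taf6l-KO Oct4 were the first of these and those on chromosome 3 at 96290354 to 96290526, chromosome 10 at 39978284 to 39978447 and chromosome 13 at 23833951 to 23834073. Their Oct4 folds in Taf6l-KO were 5.86, 8.10, 5.42 and 10.6.

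Some sites stood close together. At a spacing of 20000 bp, 73 sites fell into 32 clusters. Clusters were counted for the RNAP-positive sites only, so nothing particular to these sites can be read from the number. The largest, 5 sites on chromosome 12 between 55797797 and 55835627, had RNAP folds between 20.2 and 30.8 and lay 112 to 164 bp from H3K4me3. All 5 kept RNAP in both knockouts, 4 kept Oct4 in Taf5l-KO and none in Taf6l-KO. The exception in Taf5l-KO was the site at 55815263 to 55815438. A cluster of 4 sites on chromosome 7 between 3193256 and 3213823 had weak RNAP, with folds between 3.57 and 5.32. None of its 4 sites kept Oct4 in Taf5l-KO, and the site at 3213650 to 3213823 kept it in Taf6l-KO. Of all wild-type Oct4 peaks, 59.7% kept Oct4 in Taf5l-KO and 47.2% in Taf6l-KO.

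The tagged proteins TAF5L and TAF6L were called at a minority of the sites. A TAF6L-FB region of either line overlapped 83 RNAP-positive sites, 20.2% (16.5 to 24.5), beside 10.3% of all Oct4 peaks. The RNAP-negative sites were at 6.16% (5.08 to 7.39) and the Oct4 peaks at H3K4me3 at 20.1%. Line 1 overlapped 52 sites and line 2 overlapped 54, beside 6.66% and 5.62% of all Oct4 peaks, while 23 sites (5.61%) had peaks of both lines, beside 2.01% of all Oct4 peaks. TAF5L-FB overlapped 25 sites, 6.10% (3.98 to 8.87), beside 2.05% of all, with 0.799% at RNAP-negative sites and 3.65% at H3K4me3. All 25 came from line 1, since no peak of line 2 overlapped an Oct4 peak. The TAF5L-FB list of line 2 held 7 peaks on chromosomes 1 to 19, against 136 in line 1, and the BirA list held 24. BirA overlapped 0 of 410 sites, which allows a share of up to 0.732%, taken as 3 of 410, with an exact upper bound of 0.896%. Where the RNAP peak reached H3K4me3, TAF6L-FB was at 25% of sites, against 18.4% where it did not. As a share of each list, 81 of 1621 TAF6L-FB regions (5.00%) and 24 of 136 TAF5L-FB regions (17.6%) overlapped an RNAP-positive site.

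Of the 25 sites with TAF5L-FB, 21 also had TAF6L-FB. The 5 strongest Oct4 sites with both TAF6L-FB lines were the chromosome 17 site described above and 4 others. These lay on chromosome 8 at 91527482 to 91527754 and at 74858156 to 74858455, and on chromosome 1 at 37042740 to 37043079 and at 88205920 to 88206098. All 5 also had a TAF5L-FB peak of line 1, while over all 23 sites with both TAF6L-FB lines 8 had one. The chromosome 17 site had a TAF5L-FB fold of 5.82 and TAF6L-FB folds of 4.03 in line 1 and 6.58 in line 2. The Oct4 folds of the 5 were between 16.3 and 31.4 in Taf5l-KO, between 9.57 and 23.3 in Taf6l-KO and between 14.6 and 36.5 in wild type, so each kept Oct4 in both knockouts. RNAP was called at all 5 in both knockouts.

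Sites with TAF6L-FB kept RNAP more often than sites without it. RNAP was called in Taf5l-KO at 90.4% (81.9 to 95.7) of the 83 sites with TAF6L-FB and 76.5% (71.5 to 80.9) of the 327 without, and in Taf6l-KO at 85.5% (76.1 to 92.3) and 68.5% (63.2 to 73.5). These intervals were apart in both knockouts, and the difference was not tested. Oct4 was called in Taf5l-KO at 75.9% of sites with TAF6L-FB and 71.6% of those without, and in Taf6l-KO at 62.7% and 51.1%. Wild-type RNAP-ser5 ran the other way, at 26.5% (17.4 to 37.3) of sites with TAF6L-FB and 38.8% (33.5 to 44.4) of those without, with intervals that overlapped. The sites with TAF6L-FB had a median Oct4 fold of 8.32, against 7.81 without, and 37 of the 83 lay within 1000 bp of H3K4me3, against 102 of the 327. The part of these in the differences was not tested. TAF5L-FB was called at 0 sites in the strongest quartile of RNAP and at 10 in the weakest.

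The histone marks and Myc were rare at the sites. H3K4me3, missing in wild type by the rule, overlapped 25 sites in Taf5l-KO, 6.10% (3.98 to 8.87), beside 10.4% of all Oct4 peaks, and 35 sites in Taf6l-KO, 8.54% (6.02 to 11.7), beside 11%. In wild type the share over all Oct4 peaks was 13.2%. These shares over all Oct4 peaks include the 329 peaks chosen for wild-type H3K4me3. Those made up 212 of the 259 Oct4 peaks overlapped in Taf5l-KO and 219 of the 274 in Taf6l-KO. Of the 47 sites with H3K4me3 in either knockout, 35 lay within 1000 bp of a wild-type H3K4me3 peak. Where the RNAP peak reached wild-type H3K4me3, 12.1% of sites had H3K4me3 in Taf5l-KO and 17.2% in Taf6l-KO, against 3.74% and 5.10% where it did not. RNAP-negative sites, which also lack wild-type H3K4me3 by the rule, had H3K4me3 less often than RNAP-positive sites, at 1.26% in Taf5l-KO and 1.14% in Taf6l-KO. This difference was not tested.

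H3K9ac, an acetylation that SAGA can place, was called at no RNAP-positive site in either knockout and at 1 in wild type, on chromosome 11 at 88793202 to 88793321, with an H3K9ac fold of 4.25. That site had Oct4 in Taf5l-KO (8.39) and wild type (6.43) and not in Taf6l-KO. The 0 of 410 sites in each knockout allows a share of up to 0.732%, taken as 3 of 410, with an exact upper bound of 0.896%. Over all Oct4 peaks the shares were 0.0401% in Taf5l-KO, 0.241% in Taf6l-KO and 1.41% in wild type. The whole lists held 110 H3K9ac peaks in Taf5l-KO, 880 in Taf6l-KO and 4024 in wild type, so these lists were short and an H3K9ac level below the caller's threshold could not be seen.

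Myc, a factor that binds mainly near gene starts, was called at no RNAP-positive site in either knockout and at 6 in wild type, 1.46% (0.539 to 3.16). The shares over all Oct4 peaks were 0.0401% in Taf5l-KO, 0.0803% in Taf6l-KO and 0.602% in wild type, from lists of 32, 22 and 531 peaks. The Myc folds at the 6 sites were between 4.59 and 11.6. Of the 3 with the strongest Oct4, the site on chromosome 7 at 4653942 to 4654106 had a Myc fold of 9.28. Those on chromosome 11, at 87262139 to 87262317 and at 87275828 to 87275967, had Myc folds of 4.59 and 7.47 and RNAP folds of 30.9 and 37.0 in wild type. Of the 6, 5 also had TAF6L-FB.

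**Figure D5:**
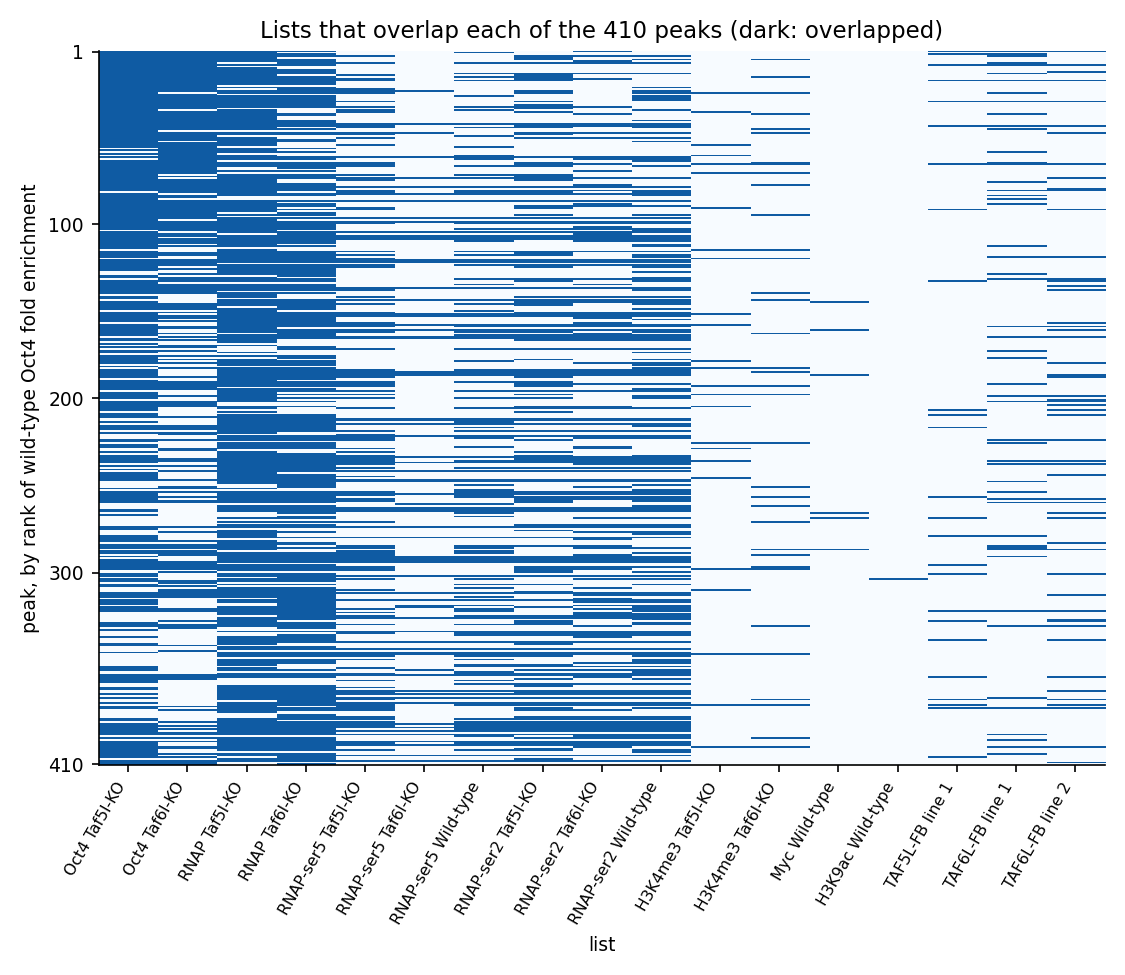
Overlap of each of the 410 RNAP-positive sites (rows, ordered by rank of wild-type Oct4 fold enrichment, strongest at the top) with the lists named below the columns. Dark marks an overlap. The Oct4 columns are nearly filled at the top and thin out downward, the RNAP columns stay mostly filled throughout, and the Myc and H3K9ac columns are almost empty.

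The rule can be applied within each genotype's own lists. It gave 609 of 2956 Oct4 peaks (20.6%) in Taf5l-KO, 384 of 2008 (19.1%) in Taf6l-KO and 410 of 2491 (16.5%) in wild type. The Taf5l-KO set overlapped 220 of the 410 wild-type sites (53.7%) and the Taf6l-KO set 138 (33.7%). In Taf5l-KO 233 of the 609 sites had no wild-type Oct4 peak, and in Taf6l-KO 124 of the 384. The same share was not taken over all knockout Oct4 peaks, so nothing particular to these sites can be read from it. The RNAP lists that the rule used held 19758 peaks in Taf5l-KO, 25589 in Taf6l-KO and 28007 in wild type.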

How the data were processed

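Peak lists of 26 ChIP-seq libraries were used, 1 list per library. Per the submitters' processing notes, the genome build was mm9 and the tools were Bowtie2 2.3.2, deepTools 2.5.3 and MACS2 2.1.1.20160309. Per the file headers, the authors called peaks of each library over an input with MACS2 at a q cutoff of 0.05. RNAP, RNAP-ser5, RNAP-ser2, H3K4me3 and H3K9ac were called with broad linking, per the file headers. The deposited lists give for each peak a pileup, which is a signal that grows with depth, a fold enrichment over local background, which is a ratio, and −log10 p and −log10 q. Broad peaks are wider, which raises the chance of an overlap.

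Overlaps of at least 1 bp were counted on chromosomes 1 to 19 with Python 3.11.15, pandas 2.3.3, numpy 2.4.6 and scipy 1.17.1. The overlap step was tested on simulated lists. TAF5L-FB and TAF6L-FB lines were joined per protein. The members and the lists compared were chosen with earlier results of these data known. Regions were named by a rule: the 5 strongest by Oct4, the 5 strongest by RNAP, the 5 strongest missing from both knockout Oct4 lists, the 5 strongest with both TAF6L-FB lines, the 3 strongest with Myc or H3K9ac, and those at the edges of the membership rule. The 2 largest clusters and the members of small counts were named after their values were seen.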

Additional observations from a re-analysis of the deposited data

Results flagged for a closer look

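With the whole peak lists, RNAP-ser5 at the 410 RNAP-positive sites lay above wild type in one knockout and below it in the other. The share with an RNAP-ser5 peak was higher in Taf5l-KO than in wild type by 4.15 percentage points (40.5% and 36.3%), and the Taf6l-KO minus wild-type difference was −18.8 points (17.6% and 36.3%). With 1 library per genotype this difference between the knockouts was not tested. The intervals of Taf5l-KO (35.7 to 45.4) and wild type (31.7 to 41.2) overlapped. With peaks of −log10 q of 5 or more alone, both knockouts lay below wild type, at 10.2% in Taf5l-KO and 4.39% in Taf6l-KO, against 15.9% in wild type. Over all 2491 Oct4 peaks the whole lists overlapped 12.4% in Taf5l-KO, 4.98% in Taf6l-KO and 11.6% in wild type. The RNAP-ser5 libraries held 8807133 unique tags in Taf5l-KO, 1702363 in Taf6l-KO and 3871824 in wild type. Their whole lists held 21493, 15873 and 43394 peaks in that order of genotypes, and the stricter threshold left 1329, 2151 and 718. The parts of depth and list length were not tested.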

How the results depend on the processing

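Of 49 alternative values, 26 stayed within the 95% interval of the reported share or, for the number of members, within 1.5 times of it, and 23 moved. With −log10 q of at least 5 there were 109 members, with a Taf5l-KO Oct4 peak at 64.2%, a Taf6l-KO Oct4 peak at 46.8%, a Taf5l-KO RNAP peak at 66.1%, a Taf6l-KO RNAP peak at 73.4% and TAF6L-FB at 25.7%, so that RNAP was kept more often in Taf6l-KO than in Taf5l-KO, the other way round from the reported 79.3% in Taf5l-KO and 72.0% in Taf6l-KO. Without members within 1000 bp of H3K4me3 there were 271, with RNAP kept at 74.5% in Taf5l-KO and 64.9% in Taf6l-KO. With RNAP peaks free of H3K4me3, RNAP was kept at 73.5% and 63.9%. TAF6L-FB was at 12.7% to 13.2% with 1 line left out and at 5.61% for regions of both lines. Weighted RNAP-negative sites kept Oct4 at 62.7% and 50.5%, and weighted RNAP peaks free of Oct4 and H3K4me3 kept RNAP at 33.9% and 37.7%. At the stricter threshold RNAP-ser5 was at 10.2% in Taf5l-KO, 4.39% in Taf6l-KO and 15.9% in wild type, and RNAP-ser2 at 15.1%, 16.6% and 19.5%, and Taf5l-KO minus wild type then changed direction for RNAP-ser5. Fewer peaks entered under each stricter setting, and no cause of the moved values was tested. A missing overlap means that no peak passed the caller's threshold at that depth, not that the protein was absent. No paired analysis was possible because each antibody and genotype had 1 library and no test was made.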
